A study of Rattus norvegicus with 18 samples.

Results

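The transcriptomes of old rat oligodendrocyte progenitor cells (OPCs) kept on soft hydrogels were set against those of old cells that had been sorted and not cultured. The comparison used 6 of the 18 libraries of the series, 3 from aged cells on soft gels and 3 from aged primary cells, chosen by their labels. OPCs divide in brain and spinal cord and give rise to oligodendrocytes, which make myelin, and those of old animals divide and differentiate more slowly. In dissociated brain they are isolated beside microglia, the resident macrophages, which lose their resting gene programme and take up a phagocytic one when they are cultured or meet myelin debris. Dissociation of tissue also switches on immediate early genes, the first transcription factor genes to answer a stimulus.

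Aged soft libraries came from cells, labelled aged OPCs, that were sorted with magnetic beads and grown with the growth factors FGF and PDGF on laminin-coated gels that the labels call soft. Aged primary libraries came from bead-sorted cells, and their age is given only by the letter A in their titles. The text on growth factors and gels is repeated for the primary libraries, which are taken as uncultured from the word primary in their source label. All groups share the bead sort and 1 kit for picogram amounts of total RNA. Strain, sex, exact age, gel stiffness and days in culture are not given in the sources used here. The labels do not say whether libraries of 1 group stem from different animals or cultures, and p-values here measure the spread among libraries alone, part or all of which may be technical. Neonate soft, neonate primary and aged stiff libraries, 3 of each, serve below to place the values.

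Depth was low and uneven. Read pairs on exons outside ribosomal RNA were estimated at 45939, 29800.0 and 108509 in the aged soft libraries, against 67793, 53356 and 52794 in the aged primary libraries. Levels are given as scaled TPM, TPM (transcript abundance per library total) divided by 1 factor per library, and 1 pair on a 2 kb transcript was worth 2.17 to 7.78 of these units. Silence cannot be read from a value of 0, since among 14 housekeeping genes 4 had such a value in 1 or more of the 6 libraries. Replicate 1 of aged soft, aged primary and aged stiff libraries stood apart, with reads spread over more genes, and these are called the 3 broad libraries. At equal depth 9459, 7610.0 and 6594 genes were detected in aged soft and 9409, 5108 and 5431 in aged primary libraries. Of olfactory receptor genes, which serve smell in the nose, the share with any coverage was 66.9, 39.1 and 30.8% in aged soft and 77.2, 3.68 and 2.68% in aged primary libraries, so this coverage moves with the groups as well as with the broad libraries.

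**Figure D1:**
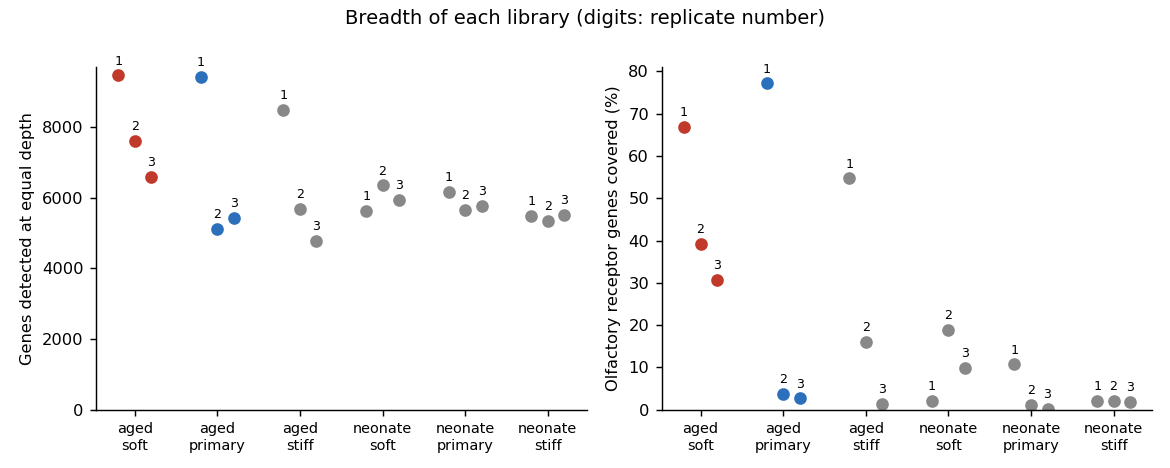
Genes detected after thinning each library to the same number of read pairs (left) and percentage of olfactory receptor genes with any coverage (right), 1 point per library with its replicate number. Replicate 1 is the highest of each aged group, and aged soft replicates 2 and 3 lie above aged primary replicates 2 and 3 in both panels.

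The label of OPCs was checked against marker genes. Summed over 22 OPC genes, levels were 559, 417 and 494 scaled TPM in aged soft and 236, 233 and 258 in aged primary libraries, against 1142, 1037 and 1292 in neonate primary libraries. Summed over 24 genes of resting microglia, they were 597, 882 and 671 in aged soft and 3986, 5899.7 and 6582 in aged primary libraries, against 216, 203 and 352 in neonate primary libraries. Summed over 23 genes of activated phagocytes, they were 6716, 9797 and 9294 in aged soft and 1793, 3837 and 3753 in aged primary libraries. In neonate libraries this sum was 660, 518 and 1145 in primary and 1689, 1779 and 1620 in soft ones. The microglia sums of the neonate soft libraries were 179, 198 and 117, so the phagocyte sum need not measure phagocytes alone. Its most abundant members are the ferritin genes Fth1 and Ftl1, given below. In each of the 6 libraries the microglia sum and the phagocyte sum were thus above the OPC sum on this length-corrected scale. For microglia the margin was small in aged soft replicate 1, at 597 against 559. In neonate soft replicate 1 the phagocyte sum, 1689, was also above the OPC sum, 1655, and in neonate soft replicates 2 and 3 it was below. In the aged primary libraries Pdgfra, the receptor that marks OPCs, was listed at 0 in 2 of the 3. The 6 libraries are therefore called aged soft and aged primary libraries and not pure OPCs, and in such bulk samples fewer cells of a type and less RNA per cell cannot be told apart.

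Between aged soft and aged primary libraries 5 genes of resting microglia fell, among them the nucleotide receptor gene P2ry12, and 3 immediate early genes fell, Fos, Jun and Egr1. Fabp4, Spp1 and Gpnmb, genes of lipid-laden and debris-clearing phagocytes, rose. Of 15144 genes tested with limma, 76 were called (0.502%, adjusted p under 0.05), 37 higher (0.244%) and 39 lower (0.258%) in aged soft libraries, and 1425 (9.41%) had an unadjusted p under 0.05. The median log2 difference of all genes was 0.32, and it was 0.09 with no scaling, which called 21 higher and 40 lower. Many calls rest on absence: 12 of the higher genes had a value of 0 in each aged primary library and 12 of the lower genes at 0 in all aged soft libraries. Only 9 higher and 13 lower genes were above 0 in all 6 libraries.

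The number of calls depended on single libraries. It was 179 without aged primary replicate 1, 25 without aged primary replicate 2 and 33 without aged primary replicate 3. Leaving out aged soft replicate 1, 2 or 3 gave 46, 43 and 33. Without the 3 broad libraries 224 genes were called, 151 higher and 73 lower, and these held 16 of the 37 higher and 27 of the 39 lower genes. Of the 76 called genes, 18 were called whichever of the 6 libraries was left out.

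**Figure D2:**
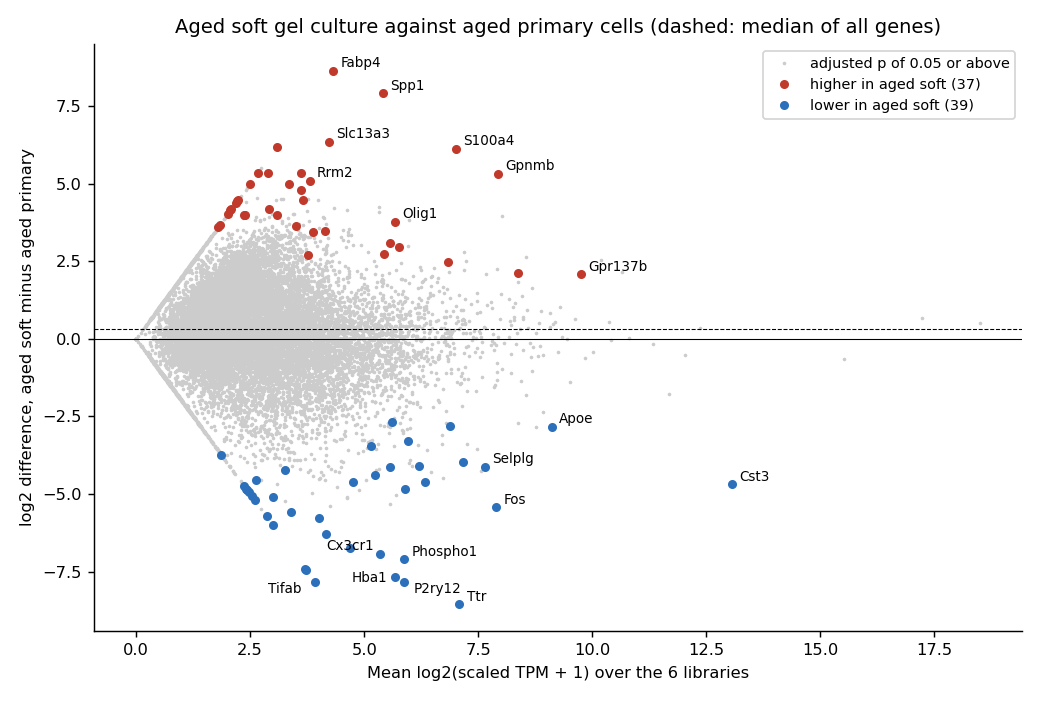
Difference between aged soft and aged primary libraries (log2 scale) against the mean level over the 6 libraries, 1 point per gene, with called genes in colour. Fabp4, Spp1 and Gpnmb stand among the largest rises, Ttr, P2ry12 and Tifab among the largest falls, and Cst3 is the called gene with the highest mean level.

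Cst3 had the smallest adjusted p of the comparison. It encodes cystatin C, a secreted inhibitor of cysteine proteases that brain macrophages and astrocytes make in bulk (chromosome 3, 143219675 to 143223544; all coordinates of genes are on rn6). Its level was 2419, 1319 and 1521 scaled TPM in aged soft libraries, against 30998, 45978 and 57723 in aged primary libraries. The groups lie far apart, with every aged soft library far below every aged primary one (log2 difference -4.68 ± 0.43 (SE), adjusted p = 4e-07). In neonate cells it was 2416, 2643 and 897 in soft and 753, 919 and 1649.9 in primary libraries, so that the aged primary libraries had the highest level of these 4 groups. The call held whichever library was left out (adjusted p up to 2.13e-05).

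Of 24 genes of resting microglia, 5 fell and 0 rose, against 0.258% and 0.244% of all genes, with a median log2 difference of -2.75 beside 0.32 for all genes. In 15 of them all aged soft libraries were below all aged primary ones, against 5.51% of all genes tested. This and the later lists were chosen with earlier results of these data known. A list's share beside that of all genes is therefore a description and no test. P2ry12, the receptor with which resting microglia sense nucleotides (chromosome 2, 149441601 to 149444548), had 7.34, 6.1 and 0 scaled TPM in aged soft and 621, 1164 and 978 in aged primary libraries (log2 difference -7.84 ± 1.06 (SE), adjusted p = 0.000263). Cx3cr1, the receptor for the neuronal chemokine fractalkine, was at 49.7, 0 and 0 in aged soft and 401, 389.8 and 586 in aged primary libraries (log2 difference -6.93 ± 1.33 (SE), adjusted p = 0.0113). For both genes every aged soft library lay below every aged primary one.

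Sall1, a transcription factor of microglial identity (chromosome 19, 23389438 to 23405024), was at 15.1, 2.83 and 8.15 in aged soft and 114, 227 and 190.4 in aged primary libraries (log2 difference -4.37 ± 1.0 (SE), adjusted p = 0.039). Selplg, a ligand of selectins, was at 35.8, 46.9 and 61.3 in aged soft and 557, 1001 and 1059 in aged primary libraries (log2 difference -4.13 ± 0.95 (SE), adjusted p = 0.041). In both genes the groups did not overlap.

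Other genes of the list did not pass the test. C1qc, a subunit of complement C1q, was at 30.1, 96.4 and 33 in aged soft and 314, 568 and 670.2 in aged primary libraries and was not called (adjusted p = 0.202). Itgam, the integrin chain CD11b, was at 21.6, 34.3 and 56.2 in aged soft and 107, 122 and 137 in aged primary libraries (adjusted p = 0.612). Tyrobp, the signalling adaptor of myeloid receptors, chosen after its values were seen, was at 61.4, 190.1 and 172 in aged soft and 68.6, 241 and 76.1 in aged primary libraries (adjusted p = 0.982). For C1qc and Itgam the groups did not overlap, and for Tyrobp they did. The call of P2ry12 held whichever library was left out (adjusted p up to 0.0049). Cx3cr1 was no longer called without aged soft replicate 2 or 3 or aged primary replicate 2 or 3 (adjusted p up to 0.0721). Sall1 was no longer called without any 1 aged soft library or aged primary replicate 2 or 3 (adjusted p up to 0.219). Selplg was no longer called without any 1 aged soft library or aged primary replicate 2 or 3 (adjusted p up to 0.224). The list's count of lower genes was 2 without aged soft replicate 2 or 3 or aged primary replicate 2 or 3, 3 without aged soft replicate 1, 5 without aged primary replicate 1, and 4 without the 3 broad libraries. It was 2 after thinning to equal depth, 1 with a pseudocount of 0.1 and 12 by voom, which called 1.32% of all genes lower and 0.641% higher. Without the 3 broad libraries 73 of all genes were called lower.

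Among genes of activated phagocytes most calls were rises. Of 22 tested, 3 rose and 1 fell, against 0.244% and 0.258% of all genes. The median was 2.21, and in 11 all aged soft libraries were above all aged primary ones, against 4.81% of all genes tested. Fabp4, a fatty acid carrier of macrophages and fat cells (chromosome 2, 93792666 to 93797267), had 135, 386 and 1195 scaled TPM in aged soft libraries and 0 in each aged primary library (adjusted p = 0.000366). Spp1, the secreted phosphoprotein osteopontin (chromosome 14, 6673686 to 6679921), was at 521, 579 and 937 in aged soft and 0, 19.3 and 0 in aged primary libraries (log2 difference 7.91 ± 1.14 (SE), adjusted p = 0.000468). Each soft gel library held both genes at over 100 scaled TPM, and the aged primary libraries held neither or little.

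Gpnmb, a membrane glycoprotein of phagocytes and pigment cells (chromosome 4, 78694447 to 78715685), was at 958, 1781 and 2183 in aged soft and 11.9, 109.7 and 40.3 in aged primary libraries (log2 difference 5.32 ± 0.66 (SE), adjusted p = 9.15e-05). It is shown with its promoter as the called phagocyte gene that was higher in aged soft libraries and above 0 in all 6. The window runs from 250 bases before to 50 after the gene's start, from RefSeq on GRCr8, chr4:79340878-79341177, plus strand. Capitals mark TGAGTCA, the site of AP-1, the dimer that Fos and Jun form, and CACATGA, which reads TCATGTG on the other strand, the site of MiT factors such as Mitf.
Gpnmb promoter: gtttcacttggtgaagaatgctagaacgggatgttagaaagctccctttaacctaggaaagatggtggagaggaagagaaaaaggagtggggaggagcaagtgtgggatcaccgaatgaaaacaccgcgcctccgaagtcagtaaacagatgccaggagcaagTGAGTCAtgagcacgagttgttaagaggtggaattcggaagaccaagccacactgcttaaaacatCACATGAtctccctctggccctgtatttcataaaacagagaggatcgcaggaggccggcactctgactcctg
TGAGTCA on either strand was found in 4.63% and TCATGTG in 3.56% of 33469 promoter windows of this length. A match of letters does not show that a factor bound there.

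Apoe, the lipid carrier apolipoprotein E, fell instead, at 221, 247 and 165 in aged soft and 944, 1821 and 1887 in aged primary libraries (log2 difference -2.83 ± 0.58 (SE), adjusted p = 0.0187). The ferritin chain genes Fth1 and Ftl1, which store iron, were the 2 most abundant members. Fth1 was at 3113, 4556 and 2745 in aged soft and 257, 1295 and 1343 in aged primary libraries (adjusted p = 0.155), and it overlaps Fads2 on the opposite strand. Ftl1 was at 656, 984 and 592 in aged soft and 169, 309 and 239 in aged primary libraries (adjusted p = 0.285). Neither ferritin gene was called, although the groups did not overlap in either. The calls of Fabp4, Spp1 and Gpnmb held whichever library was left out (adjusted p up to 0.0069). Apoe was no longer called without aged soft replicate 1 or 3 or aged primary replicate 2 or 3 (adjusted p up to 0.137). Without the 3 broad libraries 5 genes of the list were higher and 1 lower, beside 151 higher and 73 lower of all genes. Leaving out aged primary replicate 1 gave 5 higher genes, beside 128 of all genes, and the other libraries left the count at 3. The list's count was 2 after thinning to equal depth, beside 55 of all genes. It was 9 by voom, which called 0.641% of all genes higher.

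**Figure D3:**
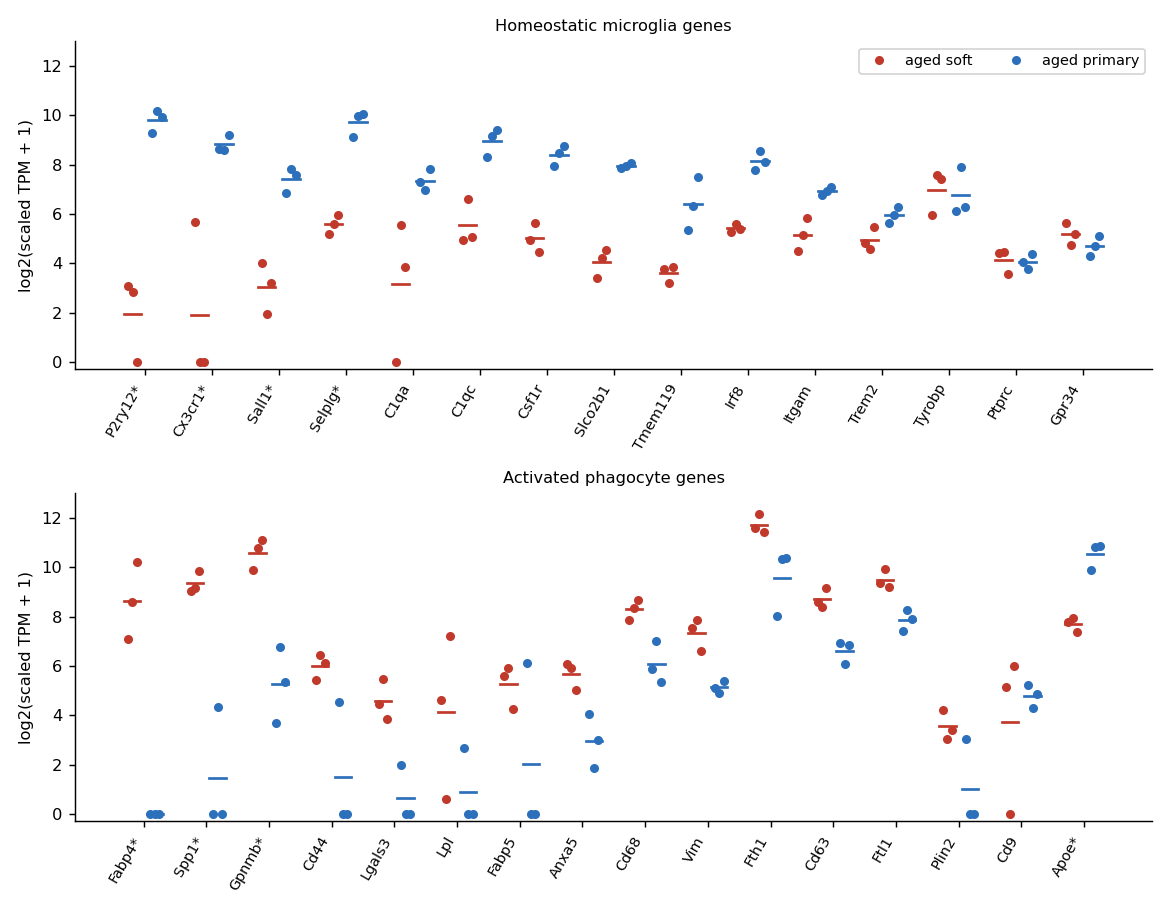
Levels of 15 genes of resting microglia (top) and 16 of activated phagocytes (bottom) in each aged soft and aged primary library, with group means as lines and called genes starred; the axis is log2(scaled TPM + 1). Most microglia genes are lower in aged soft libraries, Tyrobp, Ptprc and Gpr34 overlap, and Apoe goes against the other starred phagocyte genes.

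Calls among immediate early genes were all falls. Of 20 tested, 3 fell and 0 rose, against 0.258% and 0.244% of all genes, with a median of -2.67. In 11 of them all aged soft libraries were below all aged primary ones, against 5.51% of all genes. Fos, a subunit of AP-1 (chromosome 6, 109300433 to 109303299), had 47.9, 16.6 and 54.5 scaled TPM in aged soft and 772, 2300.1 and 2116 in aged primary libraries (log2 difference -5.42 ± 0.85 (SE), adjusted p = 0.00122). Jun, its partner in AP-1, was at 33.4, 14.6 and 13.8 in aged soft and 104, 249.9 and 279 in aged primary libraries (log2 difference -3.29 ± 0.62 (SE), adjusted p = 0.0106). The groups did not overlap for either gene.

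Egr1, a zinc finger factor induced through serum response factor, was at 53.5, 0 and 24.1 in aged soft and 116, 506 and 543 in aged primary libraries (log2 difference -4.84 ± 1.12 (SE), adjusted p = 0.0424). Its promoter is shown because the sites through which the gene is known to be induced lie in it, in the RefSeq window on GRCr8, chr18:26736828-26737127, plus strand. Capitals mark 2 matches to the CArG box, the letters that serum response factor binds, CCATATTAGG at bases 146 to 155 and CCATATATGG at bases 168 to 177 of the window.
Egr1 promoter: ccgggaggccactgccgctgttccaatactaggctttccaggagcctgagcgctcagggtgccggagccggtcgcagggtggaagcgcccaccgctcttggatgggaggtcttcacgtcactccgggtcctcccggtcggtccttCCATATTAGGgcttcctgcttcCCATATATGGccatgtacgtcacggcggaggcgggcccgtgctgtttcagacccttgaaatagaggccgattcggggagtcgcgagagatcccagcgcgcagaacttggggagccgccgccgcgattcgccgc
At least 1 CArG box, which reads as one on both strands, was found in 1.64% of all promoter windows, and binding was not measured. The call of Fos held whichever library was left out (adjusted p up to 0.0184). Jun was no longer called without aged soft replicate 2 or 3 or aged primary replicate 2 or 3 (adjusted p up to 0.0909). Egr1 was no longer called without aged soft replicate 2 or 3 or aged primary replicate 2 or 3 (adjusted p up to 0.253). The list's count of lower genes was 1 without aged soft replicate 2 or 3 or aged primary replicate 2 or 3, 4 without aged soft replicate 1 or aged primary replicate 1, and 5 without the 3 broad libraries. It was 0 after thinning to equal depth, 1 with a pseudocount of 0.1 and 10 by voom, which called 1.32% of all genes lower. Without the 3 broad libraries 73 of all genes were called lower.

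Few OPC genes were called. Of 22 tested, 2 rose and 0 fell, against 0.244% and 0.258% of all genes, with a median of 1.29. In 4 of them all aged soft libraries were above all aged primary ones, against 4.81% of all genes. Olig1, which encodes a basic helix-loop-helix protein of oligodendrocyte lineage cells (chromosome 11, 31428377 to 31430519), had values of 170.4, 166 and 233 scaled TPM in aged soft and 3.53, 8.79 and 59.3 in aged primary libraries (log2 difference 3.77 ± 0.81 (SE), adjusted p = 0.0243). Ptn, the secreted growth factor pleiotrophin, was at 29.3, 15.3 and 19.2 in aged soft libraries and listed at 0 in all aged primary libraries (adjusted p = 0.0332). Neonate primary libraries, for scale, had 258, 307 and 381 of Olig1.

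Pdgfra was at 8.48, 6.24 and 13 in aged soft and 15.9, 0 and 0 in aged primary libraries and was not called (adjusted p = 0.508), as aged primary replicate 1 lay above every soft library. Cacng4, an accessory subunit of AMPA receptors, was at 0, 38.6 and 0 in aged soft and 25.8, 121 and 35.9 in aged primary libraries (adjusted p = 0.179). Both calls of the list depended on single libraries. Olig1 was no longer called without any 1 aged soft library or aged primary replicate 1 or 2 (adjusted p up to 0.166). Ptn was no longer called without any 1 aged soft library or any 1 aged primary library (adjusted p up to 0.142). The list's count of higher genes was 0 without any 1 aged soft library or aged primary replicate 2, 1 without aged primary replicate 1 or 3, and 1 without the 3 broad libraries. It was 0 after thinning to equal depth or with only the groups compared in the fit, and 2 by voom, which called 0.641% of all genes higher. In the olfactory receptor list, 4 of 795 genes rose and 0 fell, against 0.244% and 0.258% of all genes, with a median of 0.99. Without the 3 broad libraries 28 rose with a median of 2.76, beside 151 higher and a median of 0.46 for all genes. Some of the 795, such as Olr244, were not tested in that fit. With a covariate for olfactory receptor genes 3 rose with a median of -0.42, beside -0.26 for all genes. As the covariate is the summed level of these same genes, it takes out their shared difference by design. The sign of that median is therefore no result about them. The part of this breadth of reads in the OPC rises was not tested. The summed level of resting microglia genes given above moved the other way in the same libraries, and its part in these rises was not tested either.

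Genes of later stages of the lineage were not called by limma. Of 15 genes of committed oligodendrocytes 0 were called, with 4 higher and 1 lower at an unadjusted p under 0.05, against 5.45% and 3.96% of all genes, and voom called 0 higher and 1 lower. Of 23 genes of mature oligodendrocytes 0 were called, with 4 higher and 4 lower at an unadjusted p under 0.05, and voom called 1 higher and 1 lower. Voom's shares of all genes were 0.641% higher and 1.32% lower. Mbp, which encodes a protein of compact myelin, was at 71.5, 72.9 and 206 in aged soft and 54, 27.5 and 85.1 in aged primary libraries (adjusted p = 0.827), with overlapping groups. Ptgds, prostaglandin D synthase, was at 41.6, 12.9 and 137 in aged soft and 414, 972 and 1415 in aged primary libraries, without overlap and without a call (adjusted p = 0.0654).

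**Figure D4:**
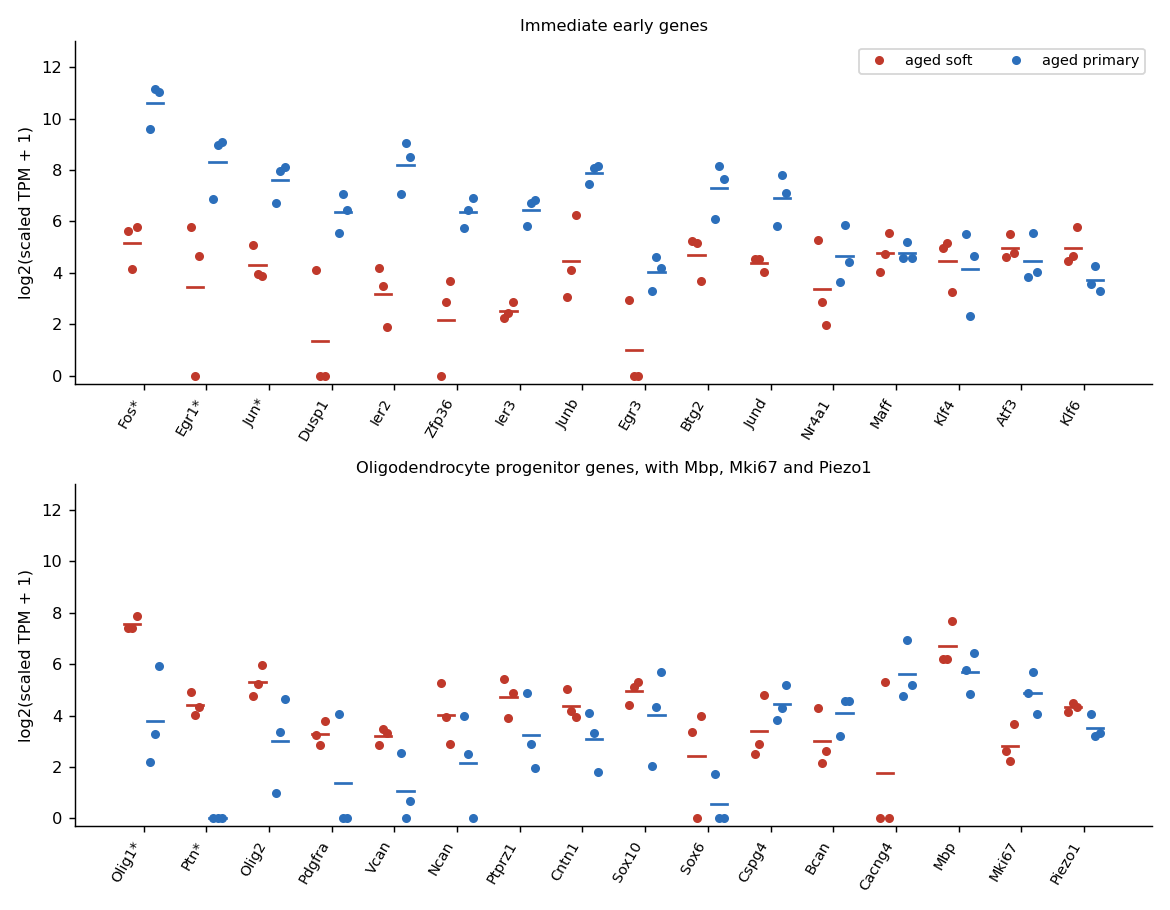
Levels of immediate early genes (top) and of OPC genes with Mbp, Mki67 and Piezo1 (bottom) in each aged soft and aged primary library, as log2(scaled TPM + 1), with group means as lines and called genes starred. Fos, Egr1 and Jun are lower in aged soft libraries without overlap, and among OPC genes Olig1 and Ptn are higher without overlap while Pdgfra overlaps.

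Dividing cells were looked for in genes of replication and mitosis. Rrm2, a subunit of the enzyme that makes deoxynucleotides (chromosome 6, 43884627 to 43890818), was at 98.8, 117 and 45.2 in aged soft and 12.7, 0 and 0 in aged primary libraries (log2 difference 5.09 ± 0.85 (SE), adjusted p = 0.00233). It was the called gene among 28 of replication, against 0.244% of all genes called higher. The call of Rrm2 held whichever library was left out (adjusted p up to 0.0329). It was lost after thinning to equal depth and with only the groups compared in the fit (adjusted p = 0.155 by limma in the latter). Of 26 mitosis genes limma called 0, with 1 higher and 1 lower at an unadjusted p under 0.05, and voom 1 higher. Over all genes 5.45% were higher and 3.96% lower at that unadjusted p, and voom called 0.641% higher. Mki67, which marks dividing cells, was at 5.09, 3.7 and 11.7 in aged soft and 28, 50.2 and 15.9 in aged primary libraries (adjusted p = 0.453), so that Rrm2 and Mki67 differed in sign.

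Metabolic and structural lists each gave few calls, as did all genes tested, with 0.244% called higher and 0.258% lower. Fdps, a cholesterol synthesis enzyme, was at 117, 416 and 400.0 in aged soft and 17.8, 82.8 and 71.1 in aged primary libraries (log2 difference 2.48 ± 0.57 (SE), adjusted p = 0.0419), the called gene among 23 of its list. Eno1, the glycolytic enolase, was at 486, 718 and 951 in aged soft and 102, 167 and 232 in aged primary libraries (log2 difference 2.12 ± 0.49 (SE), adjusted p = 0.0403), the called gene among 20. Ndufb7, a subunit of respiratory complex I, was at 36.9, 169 and 15.7 in aged soft and 0, 0 and 0.568 in aged primary libraries (log2 difference 5.36 ± 1.19 (SE), adjusted p = 0.0314), the called gene among 59. These 3 rises were without overlap, and each depended on single libraries. Fdps was no longer called without aged soft replicate 2 or 3 or any 1 aged primary library (adjusted p up to 0.172). Eno1 was no longer called without any 1 aged soft library or any 1 aged primary library (adjusted p up to 0.162). Ndufb7 was no longer called without aged soft replicate 1 or 2 or any 1 aged primary library (adjusted p up to 0.172).

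The actin list held S100a4 and S100a10, calcium-binding proteins tied to myosin and annexin. S100a4 was at 768, 1274 and 1272 in aged soft and 57.5, 0 and 63.3 in aged primary libraries (log2 difference 6.11 ± 1.23 (SE), adjusted p = 0.0172). S100a10 was at 64.7, 69.9 and 83 in aged soft libraries and listed at 0 in all aged primary libraries (adjusted p = 0.0462). They were 2 of 33 genes tested in the list, whose median was 0.78, against 0.244% of all genes called higher. S100a4 was no longer called without aged soft replicate 2 or 3 or aged primary replicate 2 (adjusted p up to 0.171). S100a10 was no longer called without any 1 aged soft library or any 1 aged primary library (adjusted p up to 0.171). Sparc, a matrix glycoprotein, fell, at 33.2, 14.6 and 7.27 in aged soft and 262, 348 and 686 in aged primary libraries (log2 difference -4.60 ± 1.01 (SE), adjusted p = 0.0302). Sparc was no longer called without aged soft replicate 2 or 3 or aged primary replicate 2 or 3 (adjusted p up to 0.168).

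Lists bearing on gels and growth factors gave 0 calls by limma, near the 0.244% higher and 0.258% lower of all genes. For scale, 5.45% of all genes were higher and 3.96% lower at an unadjusted p under 0.05. At an unadjusted p under 0.05 there were 1 higher and 0 lower of 15 mechanosensitive channel genes, 1 higher and 1 lower of 19 YAP and TAZ targets, 2 higher and 2 lower of 26 integrin and adhesion genes, and 2 higher and 2 lower of 23 genes of PDGF and FGF signalling. Voom called 1 integrin gene higher and 1 lower, 1 signalling gene higher, 0 channel genes and 0 YAP and TAZ targets. Of all genes it called 0.641% higher and 1.32% lower. Piezo1, a channel opened by stretch (chromosome 19, 55305494 to 55367353), was at 16.8, 21.5 and 19.3 in aged soft and 15.9, 8.25 and 8.88 in aged primary libraries and was not called (adjusted p = 0.85), although every aged soft library lay above every aged primary one. It overlaps Ctu2 on the opposite strand.

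Limma also called 0 genes in 4 lists of immune function and 6 of other cell types. That is near the share of all genes, of which 0.244% were called higher and 0.258% lower. At an unadjusted p under 0.05 the shares of all genes were 5.45% higher and 3.96% lower. At an unadjusted p under 0.05 there were 1 higher and 7 lower of 32 lysosome genes, 1 higher and 6 lower of 20 complement and Fc receptor genes, 1 higher and 1 lower of 20 cytokine genes and 1 higher and 1 lower of 26 interferon genes. Voom, which called 0.641% of all genes higher and 1.32% lower, gave other counts. It called 3 lysosome genes lower, 1 complement gene higher and 4 lower, 1 cytokine gene lower and 0 interferon genes. Astrocyte genes had 0 higher and 1 lower of 16 at an unadjusted p under 0.05, neuron genes 1 higher and 0 lower of 16, endothelial genes 0 higher and 3 lower of 15, pericyte genes 0 higher and 0 lower of 10, border macrophage genes 2 higher and 0 lower of 8 and genes of other blood cells 1 higher and 0 lower of 8. In these 6 lists voom called 1 endothelial gene lower and 1 border macrophage gene higher.

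Single abundant members of these lists and of the MHC list stood apart without passing the test. Npc2, a lysosomal cholesterol carrier, was at 124, 129 and 132 in aged soft and 493, 976 and 1239 in aged primary libraries (adjusted p = 0.0654). Cd74, the invariant chain of MHC class II, was at 23.3, 16.2 and 107 in aged soft and 218, 549 and 229.6 in aged primary libraries (adjusted p = 0.234). Ccl4, a chemokine of macrophages, was at 197, 188 and 207 in aged soft and 573, 878 and 671 in aged primary libraries (adjusted p = 0.775). In these 3 genes every aged soft library lay below every aged primary one. Ctsb, a lysosomal protease, was at 453, 834 and 712 in aged soft and 170.5, 427 and 553 in aged primary libraries (adjusted p = 0.606). Fcer1g, a signalling chain of Fc receptors, was at 154, 313 and 177 in aged soft and 118, 311 and 355 in aged primary libraries (adjusted p = 0.982). Folr2, a folate receptor of border macrophages, was at 18.4, 13 and 42.4 in aged soft and 3.2, 0 and 0 in aged primary libraries (adjusted p = 0.333). Ctsb and Fcer1g overlapped between the groups, and Folr2 was higher in every aged soft library. Among astrocyte and neuron genes, Slc1a3, a glutamate transporter, was at 45.3, 28.4 and 17.2 in aged soft and 38.4, 62.2 and 70.1 in aged primary libraries (adjusted p = 0.77). Map2, a protein of neuronal microtubules, was at 31.4, 10.03 and 20.5 in aged soft and 10.1, 16.9 and 13.9 in aged primary libraries (adjusted p = 0.936). Both overlapped.

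Lists of stress, ageing and general upkeep also had 0 calls by limma, which called 0.244% of all genes higher and 0.258% lower. Unadjusted counts stand beside 5.45% higher and 3.96% lower of all genes. At an unadjusted p under 0.05 there were 2 higher and 1 lower of 16 genes of cell cycle arrest and senescence, 3 higher and 0 lower of 22 of lipid handling, 5 higher and 0 lower of 21 of oxidative stress, 1 higher and 5 lower of 30 of heat shock and the unfolded protein response, and 1 higher and 0 lower of 15 of hypoxia. Likewise there were 5 higher and 0 lower of 38 proteasome genes, 6 higher and 2 lower of 80 ribosomal protein genes and 2 higher and 0 lower of 14 housekeeping genes. Voom called 1 senescence gene, 1 lipid gene and 3 oxidative stress genes higher, 3 heat shock genes lower, and 0 in the others. Its shares of all genes were 0.641% higher and 1.32% lower.

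Gdf15, a secreted stress cytokine, was at 124, 208 and 203 in aged soft and 20.8, 1.08 and 16 in aged primary libraries (adjusted p = 0.161). Hmox1, which breaks down haem, was at 536, 361 and 229.8 in aged soft and 43.3, 79.1 and 69.3 in aged primary libraries (adjusted p = 0.396). Psma7, a proteasome subunit, was at 192, 201 and 184 in aged soft and 40.5, 32.8 and 89.1 in aged primary libraries (adjusted p = 0.142). These 3 were higher in every aged soft library than in any aged primary one. Hspa5, the chaperone of the endoplasmic reticulum, was at 123, 218 and 128 in aged soft and 225, 525 and 459 in aged primary libraries (adjusted p = 0.339), without overlap. Actb, cytoplasmic actin, was at 1649.9, 3024 and 2853 in aged soft and 1727, 3551 and 3402 in aged primary libraries (adjusted p = 0.928), with overlapping groups.

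Markers of choroid plexus and red blood cells were among the largest falls. Ttr, the thyroid hormone carrier made by the choroid plexus, was at 21.6, 0 and 14.4 in aged soft and 1871, 1428 and 6779 in aged primary libraries (log2 difference -8.55 ± 1.24 (SE), adjusted p = 0.000468), and it overlaps Mapre2 on the opposite strand. Hba1, a haemoglobin chain of red blood cells, was at 43.7, 0 and 0 in aged soft and 484, 2356 and 332 in aged primary libraries (log2 difference -7.67 ± 1.14 (SE), adjusted p = 0.000629), and its reads cannot be told with certainty from those of Hba2. The choroid plexus list summed to 70.4, 19.6 and 68.4 in aged soft and 1936, 1487 and 6849.5 in aged primary libraries. The red blood cell list summed to 65.2, 15.7 and 5.42 in aged soft and 572, 2479 and 366 in aged primary libraries. In the aged primary libraries both sums are mostly the level of the called gene itself, Ttr or Hba1, and add little from the other members. The calls of Ttr and Hba1 held whichever library was left out (adjusted p up to 0.0191). Ttr lost its call with a pseudocount of 0.1, and Hba1 with only the groups compared in the fit. Of the choroid plexus list 1 of 9 genes fell, and of the red blood cell list 1 of 5, against 0.258% of all genes.

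Further large falls came from genes outside the lists. Tifab, an inhibitor of TRAF signalling (chromosome 17, 9236249 to 9239266), was listed at 0 in all aged soft libraries and was at 151, 281 and 285 in aged primary libraries (adjusted p = 0.000145). Cd83, a surface protein of antigen-presenting cells, was listed at 0 in all aged soft libraries and was at 32.3, 87.6 and 84.9 in aged primary libraries (adjusted p = 0.00562). Phospho1, a phosphatase of mineralising tissue and red blood cells, was at 2.53, 0 and 34.9 in aged soft and 472, 888 and 789 in aged primary libraries (log2 difference -7.11 ± 1.15 (SE), adjusted p = 0.0019). These 3 calls held whichever library was left out (adjusted p up to 0.0469). Phospho1 lost its call with a pseudocount of 0.1 and after thinning to equal depth.

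Ltc4s, which makes the leukotriene LTC4, was listed at 0 in all aged soft libraries and was at 99, 304 and 169 in aged primary libraries (adjusted p = 0.0172). RT1-DMa, an MHC class II peptide loader with 2 loci in the files, was at 14.6, 0 and 0 in aged soft and 143, 241 and 553 in aged primary libraries (log2 difference -6.75 ± 1.43 (SE), adjusted p = 0.0243). It was the called gene among 19 of antigen processing, against 0.258% of all genes called lower. LOC100911347, which the files place at 2 loci, was at 0, 0 and 7.35 in aged soft and 110.2, 205 and 176 in aged primary libraries (adjusted p = 0.00532). Dnajc28, a J domain protein, was at 9.28, 0 and 0 in aged soft and 74, 231 and 95.5 in aged primary libraries (log2 difference -5.77 ± 1.22 (SE), adjusted p = 0.0243). In all 4 genes the groups did not overlap. Ltc4s was no longer called without any 1 aged soft library or aged primary replicate 2 or 3 (adjusted p up to 0.138). RT1-DMa was no longer called without aged soft replicate 2 or 3 or aged primary replicate 2 or 3 (adjusted p up to 0.133). Dnajc28 was no longer called without aged soft replicate 2 or 3 or aged primary replicate 2 or 3 (adjusted p up to 0.162).

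Mir3555 was listed at 0 in all aged soft libraries and was at 96.5, 297 and 172 in aged primary libraries (adjusted p = 0.0172). Its entry lies opposite Mir191. The mature sequences of both, from RefSeq on GRCr8, are shown because they pair with each other, with seeds (bases 2 to 8) in capitals.
rno-miR-191b, from Mir3555: gAACGAAAuccaagugcagcu
rno-miR-191a-3p, from Mir191: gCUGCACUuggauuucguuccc
Over 20 bases they pair as the 2 strands of 1 site, so that counting without strand gives reads of either gene to both. These values are not shown to be microRNA levels. One pair on an entry shorter than 2 kb is worth more units than given above, so these values may rest on few pairs. Mir3555 was no longer called without any 1 aged soft library or aged primary replicate 2 or 3 (adjusted p up to 0.127). After thinning to equal depth it was not called either (adjusted p = 0.444).

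Among further rises, Slc13a3, a transporter of dicarboxylates (chromosome 3, 162084336 to 162147398), was at 191, 295 and 84.1 in aged soft and 7.93, 0 and 0 in aged primary libraries (log2 difference 6.35 ± 1.11 (SE), adjusted p = 0.00415). Xpnpep1, an aminopeptidase, was at 64.9, 33.7 and 81.1 in aged soft and 4.76, 0 and 0 in aged primary libraries (log2 difference 5.0 ± 0.79 (SE), adjusted p = 0.00122). Fxyd2, a regulator of the sodium pump, was at 81, 157 and 34.8 in aged soft and 6.07, 0 and 0 in aged primary libraries (log2 difference 5.33 ± 1.04 (SE), adjusted p = 0.0125). The calls of Slc13a3 and Xpnpep1 held whichever library was left out (adjusted p up to 0.0469). Slc13a3 lost its call with a pseudocount of 0.1. Xpnpep1 lost its call after thinning to equal depth and with only the groups compared in the fit. Fxyd2 was no longer called without aged soft replicate 1 or 2 or aged primary replicate 2 or 3 (adjusted p up to 0.105). Olfactory receptor genes were also called. Olr244 was at 21.6, 22.9 and 15.3, Olr839 at 67.7, 30.0 and 30.0 and Olr1686 at 32.9, 48.8 and 18.2 in aged soft libraries, and all 3 were listed at 0 in aged primary libraries. Olr1457 was at 37.3, 10.1 and 19.3 in aged soft and 1.19, 0 and 0 in aged primary libraries. Olr839 was no longer called whichever library was left out (adjusted p up to 0.171). Olr1457 lost its call without aged soft replicate 1 or aged primary replicate 2 or 3 (adjusted p up to 0.15). Olr1686 lost its call without aged soft replicate 2 or aged primary replicate 2 or 3 (adjusted p up to 0.123). Olr244 stayed called without any 1 aged primary library (adjusted p up to 0.0329) and was not tested without any 1 aged soft library. The part of the broad spread of reads in these rises was not tested.

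**Figure D5:**
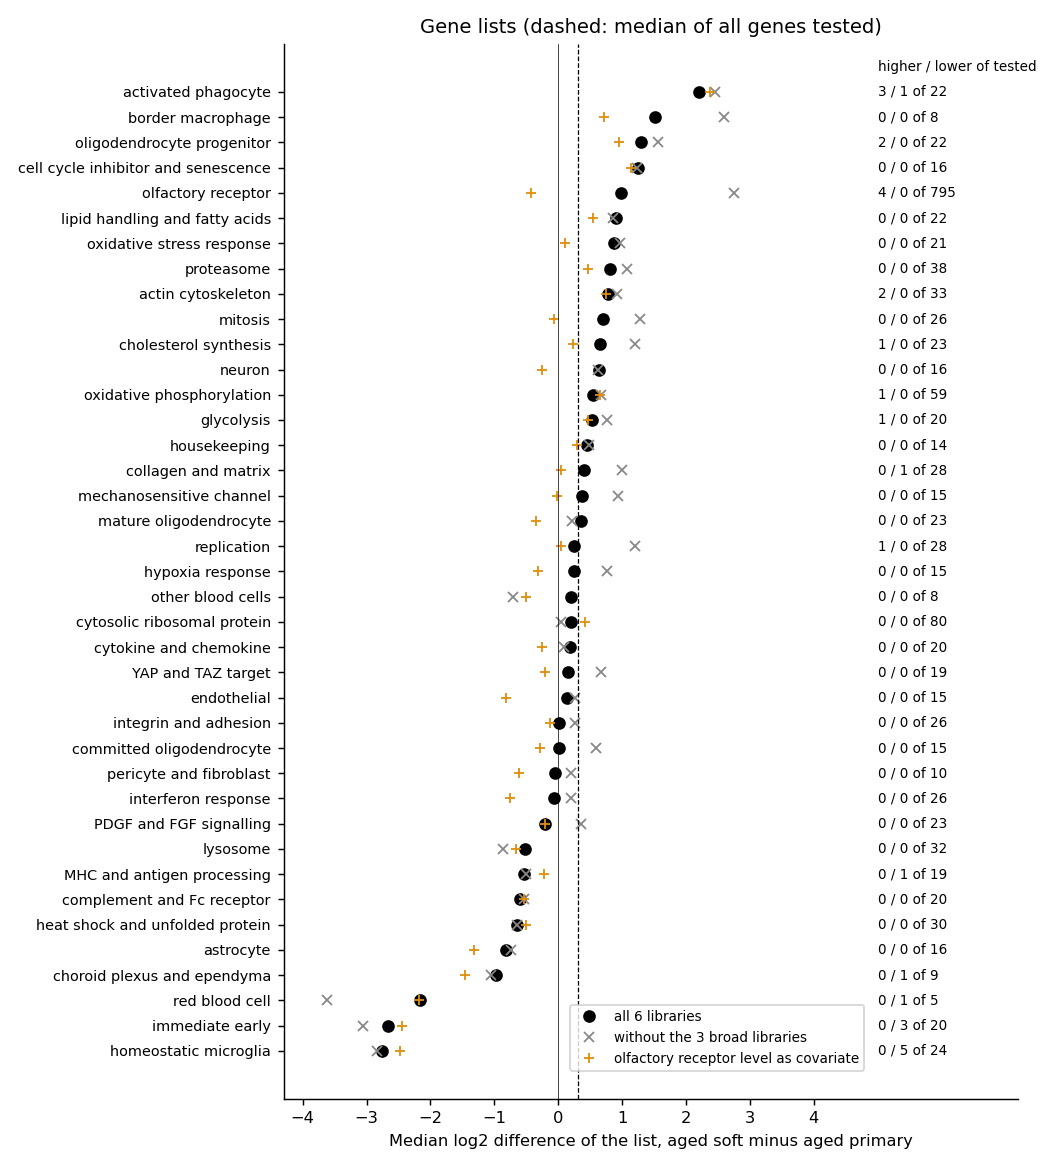
Median log2 difference between aged soft and aged primary libraries for each gene list, with all 6 libraries, without the 3 broad libraries and with a covariate for the level of olfactory receptor genes; the dashed line is the median of all genes and the counts give called genes. With all 6 libraries homeostatic microglia (-2.75) and immediate early genes (-2.67) lie lowest and activated phagocyte genes (2.21) highest.

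Whether the difference between soft gel and primary libraries was unlike at the other age was tested as the aged difference minus the neonate one. In this test 2 genes were called (0.0132%), with 684 (4.52%) at an unadjusted p under 0.05. The primary libraries of both ages also differ in their microglia sums, given above. A different cell mix and a different response to culture therefore cannot be told apart. For Cst3 the log2 difference between soft gels and primary cells was -4.68 in aged and 0.78 in neonate cells, with a difference between ages of -5.46 ± 0.61 (SE; adjusted p = 2.35e-05). Spp1 was at 0, 0 and 17.6 in neonate soft and 10.3, 0 and 33.4 in neonate primary libraries, and its difference between ages was 9.37 ± 1.62 (SE; adjusted p = 0.0294). The Spp1 call was lost when any of 9 of the 12 libraries of these 4 groups was left out.

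In neonate cells alone 6 genes were called between soft gels and primary cells (0.0396%), 2 higher (0.0132%) and 4 lower (0.0264%). The 3 genes lower at both ages, Ttr, Hba1 and Fos, were 7.69% of the 39 lower in aged cells and 75% of the 4 lower in neonate cells. Fos was at 21.9, 17.3 and 66.3 in neonate soft and 801, 1108 and 1031 in neonate primary libraries. The neonate groups did not overlap for Fos, and other than for Cst3 and Spp1 no call at 1 age was shown to differ from the other age.

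Aged cells on stiff gels, set against the same aged primary libraries, gave 182 calls (1.2%), 44 higher (0.291%) and 138 lower (0.911%). As both comparisons share these libraries, values are only set side by side. The log2 difference on stiff gels was -5.45 (adjusted p = 1.35e-08) for Cst3, -8.38 (adjusted p = 5.59e-05) for P2ry12, 5.15 (adjusted p = 5.59e-05) for Gpnmb and -4.23 (adjusted p = 0.00955) for Fos. That of Olig1 was 2.03 (adjusted p = 0.297) and that of Rrm2 3.13 (adjusted p = 0.0642), neither of them called.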

How the data were processed

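Levels were read from the deposited transcript files of 18 libraries, 6 groups of 3. Per the file headers the values are TPM, made with StringTie 1.3.2d against an annotation on rn6, without a strand option although the kit was stranded. The submitters' processing notes also name Trimmomatic, HISAT2 and Bowtie, with no role or version.

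Each gene's TPM was the sum over its transcripts (17337 genes). It was divided by a median-of-ratios factor per library, taken over the 1644 genes without a 0. The factors had first been divided by their geometric mean, which called 75 genes (36 higher, 39 lower). They are used undivided here, as planned for the test, a change made after those results had been seen, when the levels were found to differ from an earlier processing of the same files. The fit took 15144 genes (TPM of 1 or more in 3 or more libraries) as log2(scaled TPM + 1) with limma 3.58.1 under R 4.3.3, 6 group means sharing 1 spread per gene and a variance trend. P-values are two-sided, adjusted by Benjamini and Hochberg over all genes, with a threshold of 0.05, and fold changes on this scale understate those of low genes. Pairs were estimated at 300 bases each. The fit was also run on simulated libraries that shared 1 mean profile apart from the genes changed. They cannot show how the fit handles the broad libraries or mixed cells. Alternatives were other pseudocounts, filters, scalings and variance models, voom on estimated read pairs, library weights, a replicate block, thinned libraries, a covariate for olfactory receptor genes, and fits without the broad or single libraries.

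Named genes are the 12 largest rises and 12 largest falls among calls with a mean of at least 5 and no overlap, up to 4 called and the 2 highest members of each of 39 lists, Pdgfra, Mbp, Mki67 and Piezo1, and up to 8 genes called between ages; some are summarised only by their list. Results of some genes are not reported here. Members and lists were chosen with earlier results of these data known.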

Additional observations from a re-analysis of the deposited data

Results flagged for a closer look

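The difference between soft gel and primary libraries was unlike between ages in 2 genes, and a different cell mix and a different response cannot be told apart. Cst3 had an aged minus neonate difference of -5.46 on the log2 scale, and lost this call with quantile normalization alone among the alternatives run. Spp1 had a difference of 9.37, and its call was lost under most alternatives.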

How the results depend on the processing

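The count of 76 called genes was 34 with a pseudocount of 0.1, 41 with only the groups compared, 122 with library weights, 183 with quantile normalization, 297 by voom and 224 without the 3 broad libraries, and 25 to 179 with 1 library left out; the cause was not tested. A TPM filter of 5, no filter, unscaled values, robust variances, thinned libraries, the olfactory covariate and centred factors, the last added after the data were seen, kept it within 1.5 times. Thinning kept the count but not the genes. After it 25 of the 90 called genes were among the 76, against 53 with the olfactory covariate and 56 with unscaled values. The 2 genes called between ages became 1 with a pseudocount of 0.1, no filter, only the groups compared or the olfactory covariate, 0 with quantile normalization (990 at an unadjusted p under 0.05 by limma), 24 with library weights, 25 by voom, 33 after thinning, and 1 to 3 with 1 library left out. Equal replicate numbers were not taken to pair the libraries, and whether they do is not known. In aged cells deviations from the group means correlated at 0.23, 0.05 and 0.07 for equal numbers. For unequal numbers they correlated at -0.15 to 0.10, and such weak values cannot settle the matter. A replicate block called 79 genes and 1 between ages. Of 38 named calls 5 held under every alternative run (Cd83, Cst3, Fabp4, Gpnmb and Tifab), 24 were lost with a pseudocount of 0.1 and 23 after thinning, and no named call changed sign. Low depth limits every gene near the level of a few read pairs.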
